A study of Mus musculus with 45 samples.

Results

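Glycogen is the branched glucose store of the hepatocyte, and 9 genes of its synthesis and breakdown were followed in mouse liver: Ugp2, Gyg, Gys2 and Gbe1, which build it, Pygl, which takes it apart, and the regulators Phka2, Phkg2, Ppp1r3b and Ppp1r3c. They were chosen by name as enzymes and regulators of hepatic glycogen, and matched by Ensembl identifier to 9 of the 39179 genes counted. All 9 had more than 4 reads in at least 1 liver and were among the 17464 genes tested. Liver RNA was sequenced from 45 female C57BL/6 mice in 9 groups of 5. One group was gavaged with sesame oil vehicle and the others with TCDD at one of 8 doses, which from the top were 30, 10, 3, 1, 0.3, 0.1, 0.03 and 0.01 µg/kg, every 4 days for 28 days, starting at an age of 28 days by the study's methods. TCDD (2,3,7,8-tetrachlorodibenzo-p-dioxin) is a persistent ligand of the aryl hydrocarbon receptor. The labels call the mice of every group, controls included, ovariectomized, which the study's methods do not mention, and a treatment label also says that they were dosed daily. The comparison asks at which dose repeated TCDD moved the transcripts of glycogen metabolism, and which of them it moved.

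In glycogen synthesis, UDP-glucose pyrophosphorylase (Ugp2) makes the activated glucose, glycogenin (Gyg) primes a chain, liver glycogen synthase (Gys2) lengthens it and the branching enzyme (Gbe1) adds branch points. Liver glycogen phosphorylase (Pygl) removes glucose units when phosphorylase kinase, whose liver form holds the alpha subunit Phka2 and the catalytic gamma subunit Phkg2, has switched it on. Ppp1r3b and Ppp1r3c (protein targeting to glycogen) bring protein phosphatase 1 to the particle, where it favours synthesis over breakdown. The enzymes are set largely by phosphorylation, which RNA does not show.

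Ugp2, Gbe1, Pygl and Phka2 were lower at 30 µg/kg than in vehicle mice, and 5 members did not pass the test there, where 29.6% of all genes passed it. Ugp2 fell from a mean of 852.3 to 380.6 normalized CPM (reads of a gene scaled to a common library size), 2.24-fold, and was the 1 member whose |fold change| reached 2. Gbe1 fell 1.82-fold, Pygl 1.71-fold and Phka2 1.41-fold. Ugp2 and Pygl were also lower at 3 and 10 µg/kg, and Gbe1 at 10 µg/kg. Synthesis and breakdown genes were therefore both among those that fell.

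The promoters of the 3 members called at 10 µg/kg are shown with their matches to GCGTG. This is the core dioxin response element, which the receptor for TCDD is known to bind. Each window holds the 250 bases before a RefSeq start in GRCm38.p6, read 5′ to 3′ on the gene's strand, with GCGTG or its reverse complement CACGC in capitals.
Ugp2, chr11:21371268-21371517, minus strand: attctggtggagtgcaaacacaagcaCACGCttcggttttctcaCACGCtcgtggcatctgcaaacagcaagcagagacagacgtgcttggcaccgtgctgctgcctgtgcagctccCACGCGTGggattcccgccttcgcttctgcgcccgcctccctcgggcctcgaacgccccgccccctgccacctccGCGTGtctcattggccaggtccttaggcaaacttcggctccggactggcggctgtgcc
Pygl, chr12:70227684-70227933, minus strand: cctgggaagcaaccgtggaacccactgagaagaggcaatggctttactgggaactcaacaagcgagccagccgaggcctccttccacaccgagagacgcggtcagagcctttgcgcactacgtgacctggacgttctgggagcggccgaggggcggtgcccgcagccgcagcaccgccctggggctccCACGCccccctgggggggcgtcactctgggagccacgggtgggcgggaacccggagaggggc
Gbe1, chr16:70313699-70313948, plus strand: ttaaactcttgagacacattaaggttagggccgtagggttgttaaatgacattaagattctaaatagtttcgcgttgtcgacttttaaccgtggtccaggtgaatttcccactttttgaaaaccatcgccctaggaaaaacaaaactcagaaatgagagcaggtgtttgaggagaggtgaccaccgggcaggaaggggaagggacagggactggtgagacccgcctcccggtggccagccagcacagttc

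The Ugp2 window held 5 matches, beginning 224, 206, 133, 130 and 58 bases before the start, of which the match at 133 and the one at 130 overlap on opposite strands. The Pygl window held 1, at 62 bases, and the Gbe1 window none. This Pygl window lies inside the gene span of the other annotation used here, whose 5′ end at 70231488 is upstream of it. A further RefSeq start of Ugp2 had none in its window. Among the 8 windows of the 7 members in the table, 4 held at least 1 match. Among 32851 promoter windows of the same length, 28.2% held at least 1 and 0.298% held 5 or more. Gyg and Ppp1r3c, which did not pass the test at any dose, held 1 match each, at 217 and 221 bases. A match of these letters is a description of the window, and binding was not measured in these data.

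Between 11767284 and 56509899 reads fell on genes in each liver, with a median of 17225047. Ugp2 had a mean of 13050 reads a liver and Gyg, the lowest member, a mean of 157, so the counting error is largest for Gyg. Cyp1a1, the classical target of the receptor, was at 7.498 ± 6.32 CPM in vehicle livers and at 7627 ± 1186 CPM in those given 30 µg/kg (SD, n = 5 each), and edgeR called it higher (adjusted p = 1.07e-12). At 0.01 µg/kg, replicate 5 had 69.7 CPM of Cyp1a1 and the others of its group 1.18 to 4.54, so that library stands apart. With and without it, the log2 fold change at 0.01 µg/kg was -0.22 and -0.14 for Ugp2, -0.40 and -0.37 for Gys2, -0.34 and -0.31 for Gbe1, -0.15 and -0.08 for Pygl, and -0.35 and -0.96 for Ppp1r3b. It was 1.07 and 1.25 for Ppp1r3c, -0.042 and -0.015 for Gyg, -0.0023 and 0.10 for Phka2 and -0.16 and -0.11 for Phkg2, and no member passed the test either way. Levels are CPM after TMM normalization, which rescales each library to the bulk of its genes.

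Per kilobase of exon, the vehicle levels were highest for Ugp2, at 277.7 ± 22.9 CPM per kb (SD, n = 5), followed by Gys2 at 136.2 ± 32.7, Pygl at 82.4 ± 17.7, Ppp1r3b at 40.3 ± 10.7 and Gbe1 at 37.6 ± 6.89. Ppp1r3c had 13.5 ± 6.55, Phkg2 6.50 ± 0.959, Phka2 5.51 ± 0.627 and Gyg 3.16 ± 0.257 CPM per kb. Ppp1r3b and Gbe1 lay within each other's SD, and the ranges of mean ± SD of Phkg2 and Phka2 overlapped. The synthesis enzymes thus spanned the whole range, from Ugp2 at the top to Gyg at the bottom.

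**Figure D1:**
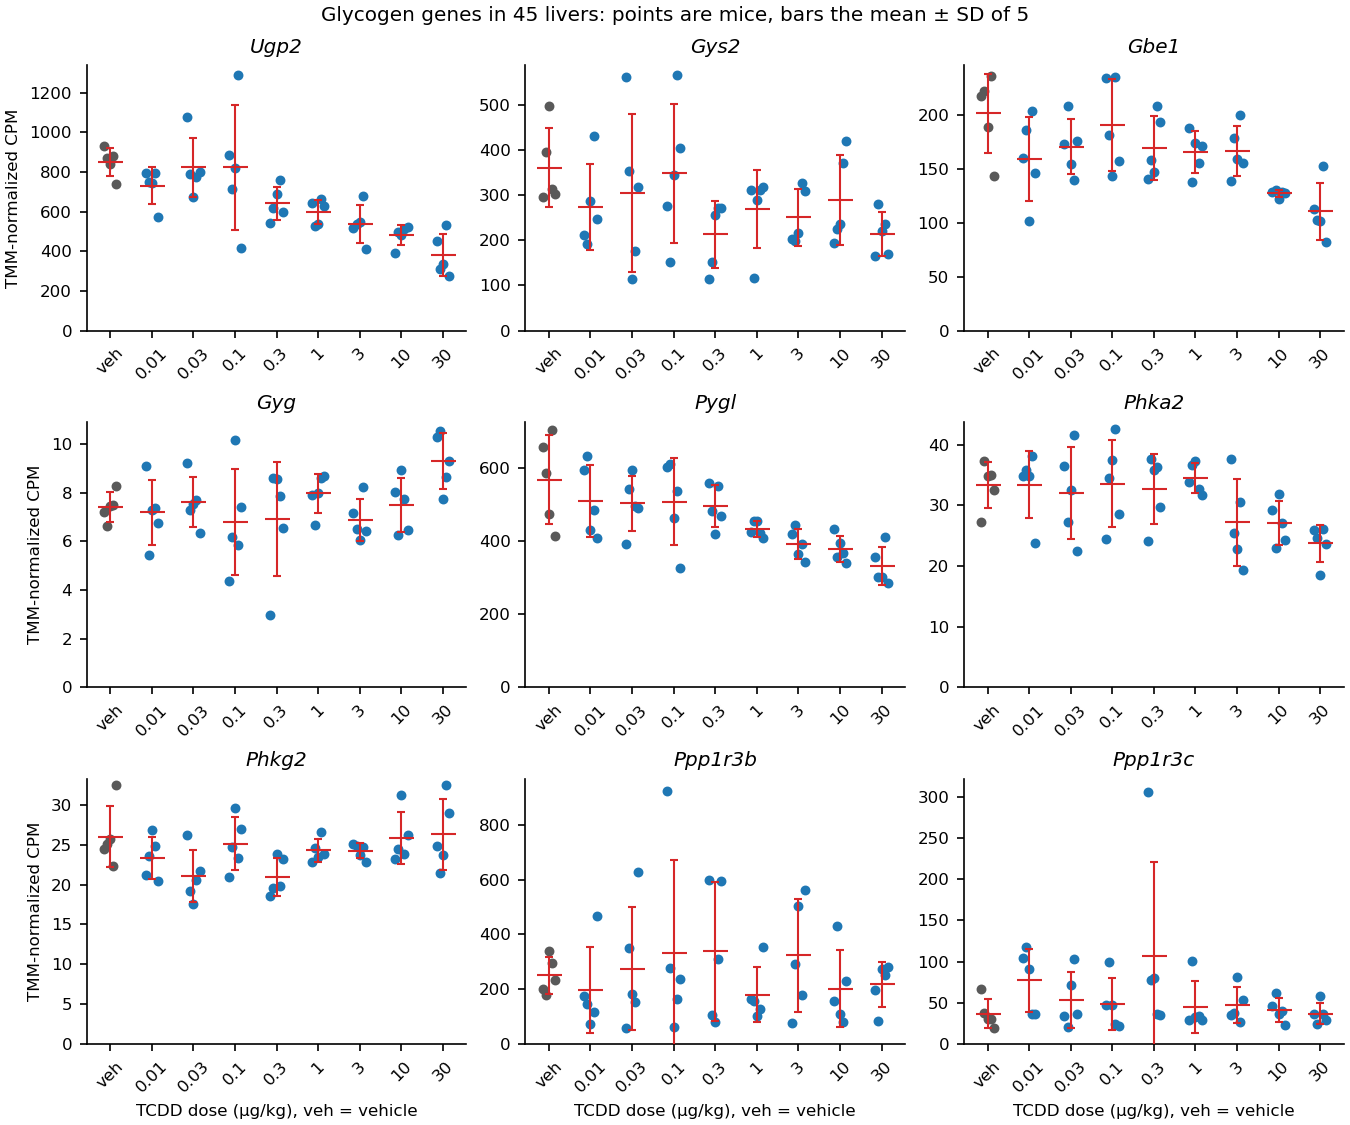
TMM-normalized CPM (linear axes from 0) of the 9 glycogen genes in each of 45 livers, by TCDD dose in µg/kg, with vehicle mice in grey. Points are mice and red bars the mean ± SD of 5, cut at 0 where the SD is larger than the mean. Ugp2 falls from a mean of 852.3 in vehicle mice to 380.6 at 30 µg/kg, and Ppp1r3b spreads from 62.4 to 922.6 within the 0.1 µg/kg group.

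Ugp2 (chr11:21321138-21371201, minus strand) had the largest fold change of the members at 30 µg/kg. The vehicle mice had 930.0, 871.0, 840.4, 879.6 and 740.3 CPM. The mice at 1 µg/kg had 640.9, 528.0, 539.9, 662.1 and 627.0 CPM, those at 3 µg/kg 518.9, 538.0, 547.4, 679.4 and 411.3, those at 10 µg/kg 392.2, 495.6, 484.1, 512.1 and 520.7, and those at 30 µg/kg 450.1, 308.0, 335.6, 531.9 and 277.5. Every mouse of these 4 groups lay below every vehicle mouse. Among all genes tested, 2.0% had all 5 mice below every vehicle mouse at 1 µg/kg, 3.36% at 3, 6.13% at 10 and 9.57% at 30 µg/kg. The fitted log2 fold change was -0.51 ± 0.18 (SE) at 1 µg/kg, where it did not pass the test (edgeR quasi-likelihood, Benjamini-Hochberg adjusted p = 0.158), and -0.66 ± 0.18 at 3 µg/kg (edgeR adjusted p = 0.0149), a call lost without replicate 5 of that dose (edgeR adjusted p = 0.0610). It was -0.83 ± 0.18 at 10 µg/kg (edgeR adjusted p = 0.000794) and -1.16 ± 0.18 at 30 µg/kg (edgeR adjusted p = 2.11e-06). A fit of only the vehicle and 1 µg/kg mice called Ugp2 at that dose too (edgeR adjusted p = 0.00902).

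The Ugp2 values spread most widely at 0.1 µg/kg, where they ran from 414.6 to 1287.5 CPM, a 3.11-fold range among 5 mice of 1 group. The means were 731.1 ± 93.0, 823.3 ± 149.3 and 824.7 ± 315.5 CPM (SD, n = 5) at 0.01, 0.03 and 0.1 µg/kg, and none passed the test. At 0.3 µg/kg the mean was 641.3 ± 84.1 CPM (SD, n = 5), and 4 of 5 mice lay below every vehicle mouse.

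Gbe1 (chr16:70313949-70569716, plus strand), the branching enzyme, had 217.6, 221.9, 189.1, 235.8 and 143.0 CPM in vehicle mice. It had 128.7, 130.5, 122.0, 128.8 and 127.5 CPM at 10 µg/kg and 112.8, 102.5, 101.8, 153.0 and 82.4 CPM at 30 µg/kg. The 10 µg/kg group lay wholly below the vehicle group, as that of 6.13% of all genes did. It was the tightest group of any member, with a coefficient of variation (SD over mean) of 2.54%. At 30 µg/kg 1 mouse, at 153.0 CPM, was above the lowest vehicle mouse. The log2 fold change was -0.66 ± 0.16 at 10 µg/kg (edgeR adjusted p = 0.00300) and -0.87 ± 0.16 at 30 µg/kg (edgeR adjusted p = 5.12e-05). At 3 µg/kg it was -0.28 ± 0.16, short of the test (edgeR adjusted p = 0.332).

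Pygl (chr12:70190811-70231488, minus strand), the phosphorylase, had 657.9, 586.5, 475.9, 705.5 and 414.2 CPM in vehicle mice. It had 419.2, 443.6, 364.7, 392.3 and 343.6 CPM at 3 µg/kg, 433.5, 357.3, 396.0, 366.7 and 341.5 at 10 µg/kg, and 358.1, 302.3, 302.1, 411.2 and 286.0 at 30 µg/kg. Only at 30 µg/kg did every mouse lie below every vehicle mouse, as in 9.57% of all genes. There the highest treated mouse, at 411.2 CPM, was close to the lowest vehicle mouse, at 414.2. The log2 fold change was -0.53 ± 0.14 at 3 µg/kg (edgeR adjusted p = 0.0157), -0.58 ± 0.14 at 10 µg/kg (edgeR adjusted p = 0.00343) and -0.77 ± 0.14 at 30 µg/kg (edgeR adjusted p = 5.17e-05). The call at 3 µg/kg was lost without vehicle replicate 1 (edgeR adjusted p = 0.0529), without vehicle replicate 4 (0.0745) without 3 µg/kg replicate 5 (0.0541) and with libraries scaled by their totals alone (0.0561).

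Phka2 (chrX:160502166-160598878, plus strand), the alpha subunit of liver phosphorylase kinase, had 27.3, 37.3, 34.9, 35.0 and 32.5 CPM in vehicle mice and 25.9, 24.6, 18.5, 26.1 and 23.6 CPM at 30 µg/kg. The groups did not overlap, although the lowest vehicle mouse was only slightly above the highest treated mouse. Of all genes, 9.57% lay wholly below vehicle at this dose. The log2 fold change was -0.49 ± 0.16 (edgeR adjusted p = 0.0162). The call was lost without vehicle replicate 2 (edgeR adjusted p = 0.0508), without 30 µg/kg replicate 3 (0.0658), and when libraries were scaled by their totals alone, where the log2 fold change was -0.28 (0.200). At 1 µg/kg and below the Phka2 group means lay between 32.1 and 34.5 CPM, around the vehicle mean of 33.4.

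Gys2 (chr6:142422613-142473109, minus strand), the liver glycogen synthase, did not pass the test at any dose. Vehicle mice had 295.4, 397.0, 498.9, 314.0 and 303.6 CPM, and mice at 30 µg/kg 164.9, 281.2, 221.2, 237.3 and 169.7 CPM. All 5 treated mice were below all vehicle mice, as were those of 9.57% of all genes. The log2 fold change was -0.75 ± 0.32, about that of Pygl, but its SE was 0.32 against 0.14 for Pygl and it did not pass the test over all genes (edgeR adjusted p = 0.0753, unadjusted p = 0.0251). In a fit of the vehicle and 30 µg/kg mice alone it was called (edgeR adjusted p = 0.00320). At 0.3 µg/kg the 5 mice, at 114.6 to 271.6 CPM, were also below every vehicle mouse, as were those of 0.899% of all genes, with a log2 fold change of -0.76 ± 0.32 (edgeR adjusted p = 0.395). At 0.1 µg/kg the mean was 348.7 ± 153.7 CPM (SD, n = 5), near the vehicle mean of 361.8 ± 86.8 (SD, n = 5). Gys2 therefore had no steady order with dose, and its slope over the dose ranks did not pass the test (edgeR adjusted p = 0.0870).

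The Gys2 to Pygl ratio within a liver sets synthase against phosphorylase. As log2 of the reads of Gys2 over those of Pygl it averaged -0.65 ± 0.52 (SD, n = 5) in vehicle mice and -0.64 ± 0.38 (SD, n = 5) at 30 µg/kg. Among groups the mean lay between -1.30 at 0.3 µg/kg and -0.45 at 10 µg/kg. SDs of the groups ran from 0.38 to 1.08. The difference of this ratio between groups was not tested.

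**Figure D2:**
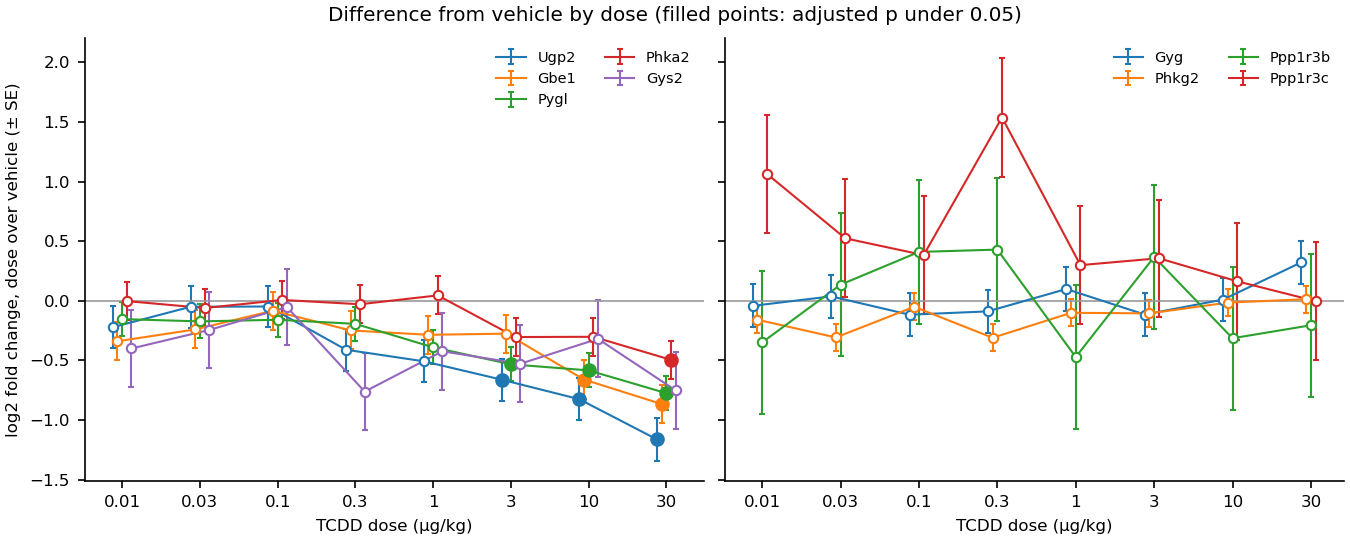
Log2 fold change of TCDD over vehicle with its SE from the edgeR fit of all 45 livers, by dose in µg/kg (doses evenly spaced), for the 5 members with negative values throughout the higher doses (left) and the other 4 (right). Filled points passed an adjusted p of 0.05. Filled points appear from 3 µg/kg for Ugp2 and Pygl, at 10 µg/kg for Gbe1 and at 30 µg/kg for Phka2, and Ppp1r3b and Ppp1r3c carry the widest error bars.

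Gyg, Phkg2, Ppp1r3b and Ppp1r3c did not pass the test at any dose. Gyg (chr3:20122084-20155317, minus strand), the primer of the chain, had 7.22, 6.61, 7.46, 7.49 and 8.29 CPM in vehicle mice and 10.3, 10.5, 7.75, 8.64 and 9.30 CPM at 30 µg/kg. Of the treated mice 4 were above every vehicle mouse, and the log2 difference was 0.32 ± 0.18 (edgeR adjusted p = 0.179). With libraries scaled by their totals alone it was 0.54 and passed the test (edgeR adjusted p = 0.0223).

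Phkg2 (chr7:127573340-127583307, plus strand), the catalytic subunit of phosphorylase kinase, had 22.3 to 32.5 CPM in vehicle mice and 21.5 to 32.5 CPM at 30 µg/kg. The 2 groups covered the same range, and the log2 difference was 0.01 with a 95% interval of -0.21 to 0.23. Phkg2 shares 876 exon bases with Ccdc189 on the opposite strand, which had a mean of 17.6 reads against 507 for Phkg2. Whether the counting used strand is not stated. Catalytic and alpha subunits of 1 enzyme thus had unlike values at 30 µg/kg, with the difference between the 2 genes not tested.

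Ppp1r3b (chr8:35375739-35388139, plus strand), the hepatic glycogen-targeting subunit of protein phosphatase 1, had 202.2, 180.2, 341.2, 295.0 and 234.6 CPM in vehicle mice and 197.2, 82.3, 274.5, 252.1 and 281.3 CPM at 30 µg/kg. Ppp1r3c (chr19:36731731-36736653, minus strand), which does the same task in many tissues, had 66.6, 38.2, 30.4, 29.8 and 19.6 CPM in vehicle mice and 36.1, 23.7, 57.9, 36.3 and 29.3 CPM at 30 µg/kg. The groups overlapped for both. The log2 difference was -0.20 with a 95% interval of -1.38 to 0.97 for Ppp1r3b and -0.00 with an interval of -0.97 to 0.97 for Ppp1r3c, so changes of nearly 2-fold in either direction lie inside both intervals. At lower doses the largest Ppp1r3c values were 1.54 ± 0.50 at 0.3 µg/kg (edgeR adjusted p = 0.220) and 1.07 ± 0.50 at 0.01 µg/kg (edgeR adjusted p = 0.468), short of the test.

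Against vehicle, edgeR called 0 of the 9 members at each of the 5 doses up to 1 µg/kg, where, from the lowest dose up, 0%, 0.0573%, 0.0229%, 0.464% and 1.76% of all genes were called. At an unadjusted p under 0.05, a looser rule than that of these shares, the members numbered 2, 1, 0, 4 and 2. How many of all genes passed that looser rule was not counted. The DESeq2 Wald test called 0 members at each of these doses. At 3 µg/kg 2 members were called, all lower, with 7.54% of all genes called and 3.20% called lower. At 10 µg/kg 3 were called, again all lower, with 15.9% of all genes called and 7.47% lower. At 30 µg/kg 4 were called, all lower, with 29.6% of all genes called, 14.1% lower and 15.5% higher. The |fold change| of at least 2 was reached by 1 member, Ugp2, and by 3.42% of all genes in that direction. It was reached by 0 members with libraries scaled by their totals alone, where Ugp2 was at -0.95 on the log2 scale, and by 2, Ugp2 and Gbe1, without 30 µg/kg replicate 4. The median log2 fold change of the 9 members at 30 µg/kg was -0.49, and that of all genes 0.02. The DESeq2 Wald test called the same members at 3, 10 and 30 µg/kg.

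Testing all doses at once, edgeR called 3 members, Ugp2 (adjusted p = 3.32e-06), Pygl (0.000306) and Gbe1 (0.000830), with 28.8% of all genes called and Phka2 just short (0.0519). Fitting a slope over dose rank called 4 members lower with dose, while 40.5% of all genes were called by slope and 19.7% lower. The log2 slope per dose step was -0.14 ± 0.02 (SE) for Ugp2, -0.09 ± 0.01 for Pygl, -0.08 ± 0.02 for Gbe1 and -0.05 ± 0.02 for Phka2. Without the 30 µg/kg mice Phka2 lost this call (edgeR adjusted p = 0.104) and the other 3 kept it.

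No member was called between a dose and the next lower one. Of all genes, edgeR called 0%, 0.0115%, 0.0458%, 0.115%, 0.178%, 0.784% and 0.613% at these 7 steps, from 0.03 over 0.01 up to 30 over 10 µg/kg. At an unadjusted p under 0.05, a looser rule than that of these shares, the members numbered 0, 1, 4, 1, 1, 1 and 0. The number of all genes that passed this looser rule at each step was not counted. The 4 at the step to 0.3 µg/kg were Ugp2, Gys2, Phkg2 and Ppp1r3c. At the step to 10 µg/kg it was Gbe1 (edgeR adjusted p = 0.388). Its mice ran from 139.1 to 199.97 CPM at 3 µg/kg and from 122.0 to 130.5 CPM at 10 µg/kg. How many of all genes separated in this way between neighbouring doses was not counted. DESeq2 was not run on the steps.

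For single genes at 30 µg/kg, an exact two-sided permutation test of the log2 CPM of 5 mice against 5 gave p = 0.007937 for Gys2, Pygl, Ugp2 and Phka2. This is the smallest p that the 252 arrangements allow, and it restates that the 2 groups did not overlap. All 5 mice at 30 µg/kg lay below every vehicle mouse in 9.57% of all genes tested. The exact p was 0.0159 for Gbe1 and for Gyg, which was higher. It was 0.556 for Ppp1r3b, 0.913 for Ppp1r3c and 0.960 for Phkg2. These p-values are not adjusted for the 9 genes.

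The spread between mice of 1 group differed strongly among the members. The median coefficient of variation over the 9 groups was 69.5% for Ppp1r3b and 49.98% for Ppp1r3c, and 34.4% for Gys2, while the other 6 lay between 12.6% and 17.6%. Among 11013 genes with a mean of at least 50 reads the median was 13.96%, and Ppp1r3b, Ppp1r3c and Gys2 stood at the 99.7th, 98.9th and 95.4th percentile. At 0.1 µg/kg Ppp1r3b had 922.6, 278.6, 62.4, 165.5 and 238.5 CPM, a 14.8-fold range. At 0.3 µg/kg Ppp1r3c had 306.2, 78.0, 79.7, 36.8 and 35.4 CPM, an 8.66-fold range. The regulators of phosphatase targeting and the synthase were thus the members that varied most from mouse to mouse.

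**Figure D3:**
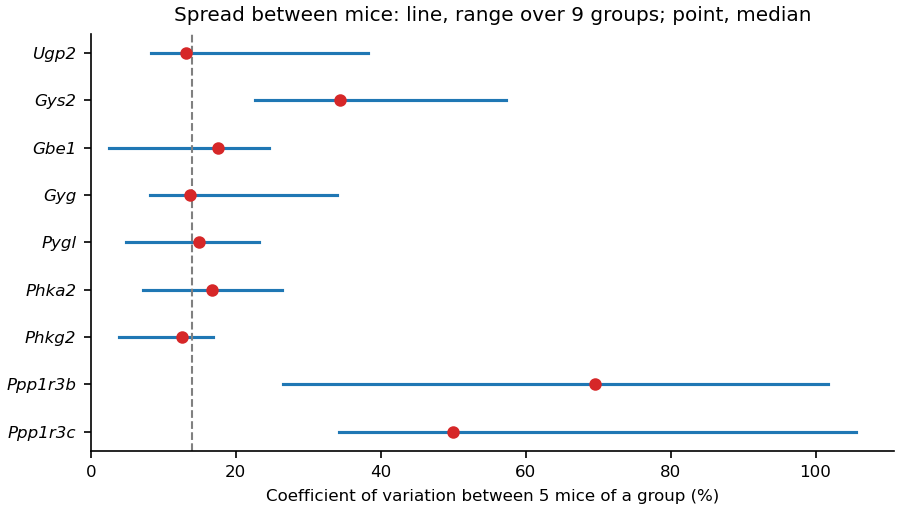
Coefficient of variation (SD over mean, in percent) between the 5 mice of a group, for each glycogen gene, with the line from the lowest to the highest of 9 groups and the red point at the median. The dashed line is the median of 11013 genes, 13.96%. Ppp1r3b, Ppp1r3c and Gys2 lie to the right of it with medians of 69.5%, 49.98% and 34.4%.

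The mouse-to-mouse deviations were shared between members. Taking each log2 CPM as its distance from the mean of its dose group, over 45 mice, Ppp1r3b and Phka2 were opposed (Pearson's r = -0.758, Spearman's rho = -0.758). Gys2 and Ppp1r3c were opposed as well (r = -0.712, rho = -0.704), and so were Gyg and Ppp1r3b (r = -0.615, rho = -0.599). Without the 2 mice farthest from the median of the first-named gene, r was -0.740, -0.686 and -0.581. Gbe1 and Ugp2 deviated together (r = 0.550, rho = 0.604, and r = 0.607 without such 2 mice), as did Pygl and Gbe1 (r = 0.534, rho = 0.524, and r = 0.465 without them). These are the largest of 36 pairs and are a description without a test, and both genes of a pair come from the same library.

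**Figure D4:**
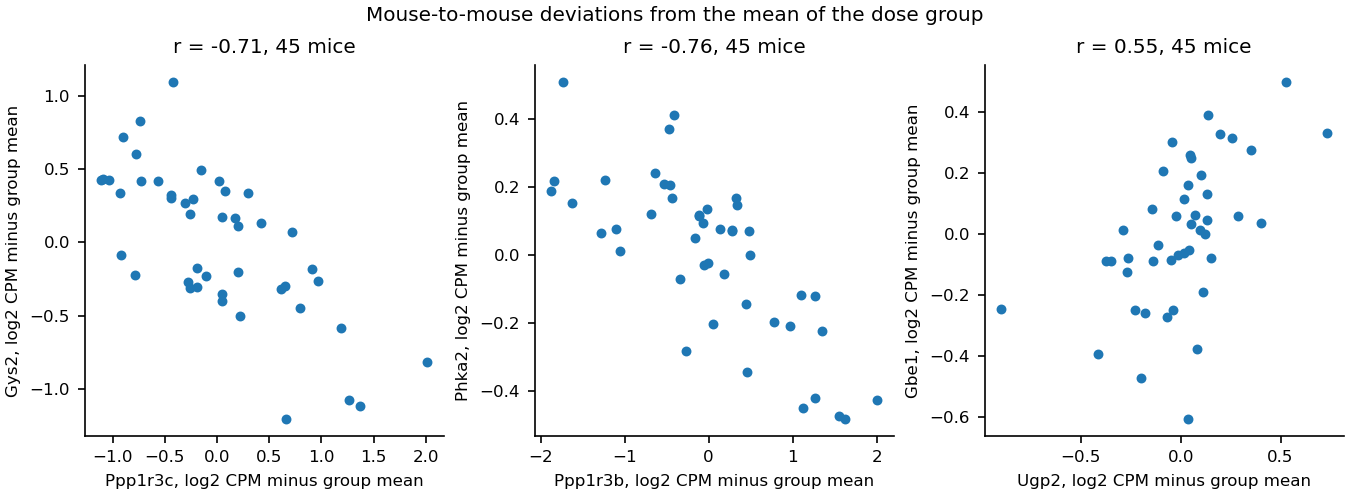
Each point is 1 of 45 mice, placed by the log2 CPM minus the mean of its dose group for the gene named on each axis (log2 units). Gys2 falls as Ppp1r3c rises (r = -0.71) and Phka2 falls as Ppp1r3b rises (r = -0.76), while Gbe1 rises with Ugp2 (r = 0.55).

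Clock output genes varied among the same mice, which was looked at after the values were seen. Tef and Dbp are clock-controlled transcription factors, Nr1d2 is a nuclear receptor of the clock and Arntl its positive arm. Over the same 45 deviations Gys2 had r = 0.854 with Tef and -0.827 with Arntl, Ppp1r3c had r = -0.696 with Tef and 0.752 with Arntl, and Gyg had r = 0.771 with Dbp. Ppp1r3b had r = -0.668 and Phka2 r = 0.634 with Dbp. Without the 2 mice farthest from the median of the clock gene these became 0.801, -0.789, -0.675, 0.707, 0.623, -0.657 and 0.613. For Ugp2, Gbe1, Pygl and Phkg2 the largest r with any of these 4 genes was 0.475, -0.435, 0.265 and 0.389. With Tef, r was only 0.469 for Gyg, -0.270 for Ppp1r3b and 0.266 for Phka2. Arntl was low, at 0.431 to 1.36 CPM in vehicle mice, and ran from 0.857 to 35.8 CPM at 0.3 µg/kg. Dbp ran from 145.4 to 183.6 CPM in vehicle mice and from 30.4 to 94.7 CPM at 30 µg/kg. Those groups did not overlap, and 9.57% of all genes likewise lay wholly below vehicle at that dose. At 0.3 µg/kg Dbp ran from 3.29 to 193.0 CPM. Dbp, Tef and Nr1d2 had log2 fold changes of -1.43, -0.70 and -0.64 at 30 µg/kg that did not pass the test (edgeR adjusted p = 0.0661, 0.0711 and 0.120). The part of this variation in the glycogen values was not tested, and the hour at which each mouse was killed is not given in the sources used here.

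The genes most like the called members over the 45 livers, among the 11013 with a mean of at least 50 reads, were named by their Pearson's r of log2 CPM. For Pygl they were Cyb5b, a mitochondrial cytochrome b5 (r = 0.923), and Acly, the ATP citrate lyase that feeds fatty acid synthesis (r = 0.883). For Gbe1 they were Pdk1, a kinase that restrains pyruvate dehydrogenase (r = 0.870), and Slc2a2, the hepatic glucose transporter GLUT2 (r = 0.867). For Ugp2 they were Aph1a, a gamma-secretase subunit (r = 0.902), and Slco1b2, a hepatic organic anion transporter (r = 0.885). These values hold the differences between doses as well as those between mice.

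Calls among other genes of the pathway went in both directions. Of 36 further glycogen genes, all tested, 9 were lower and 3 higher at 30 µg/kg and 24 did not pass the test, beside 14.1% of all genes lower and 15.5% higher, with a median log2 fold change of -0.22. With libraries scaled by their totals alone the split turned to 3 lower (Akt2, Slc2a2 and Stbd1) and 5 higher. Under that scaling 6218 of all 17464 genes were called, 80.3% of them higher, so the calls of all genes turned upward too. With TMM normalization, 4 of the 36 were lower and 1 higher at 10 µg/kg, beside 7.47% and 8.47% of all genes. At 3 µg/kg 3 were lower and 1 higher, beside 3.20% and 4.34% of all genes. At 1 µg/kg 0 were lower and 1 higher, beside 0.515% and 1.24% of all genes. The gene called at 1 µg/kg was Phkb, the beta subunit of phosphorylase kinase, at a log2 fold change of 0.35 ± 0.09 (edgeR adjusted p = 0.0182). Phkb was not called at 10 µg/kg.

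Among the genes of glucose entry and exit, Slc2a2 had 483.3, 586.5, 482.0, 562.5 and 385.9 CPM in vehicle mice and 226.9, 263.2, 229.4, 298.2 and 182.4 CPM at 30 µg/kg. The groups did not overlap, and 9.57% of all genes likewise lay wholly below vehicle at 30 µg/kg. Slc2a2 fell by 1.06 ± 0.16 on the log2 scale (edgeR adjusted p = 1.34e-06), and was called at 3 and 10 µg/kg too. Its highest mouse at 30 µg/kg, replicate 4, was also the highest of its group for Ugp2, Gbe1 and Pygl. Gckr was lower as well, by a log2 fold change of -0.40 ± 0.14 (edgeR adjusted p = 0.0213), and leaving out 1 mouse lost its call in 4 of 10 fits, with adjusted p up to 0.0716, as did scaling by library totals (edgeR adjusted p = 0.290).

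Among the genes of the glycogen particle, Stbd1, which anchors glycogen to membranes, was lower at 30 µg/kg (log2 fold change -0.95 ± 0.21, edgeR adjusted p = 0.000585). Pgm2 was higher (0.71 ± 0.16, edgeR adjusted p = 0.000447), at 5.11 ± 0.584 CPM (SD, n = 5) in vehicle mice. The muscle forms Gys1 and Pygm and the brain form Pygb were not called, and their vehicle means were 3.15, 0.843 and 3.53 CPM, against 361.8 for Gys2 and 568.0 for Pygl. Phosphorylase kinase gave 2 higher members, Phkb (0.31 ± 0.09, edgeR adjusted p = 0.00442) and Phkg1 (2.13 ± 0.50, edgeR adjusted p = 0.000957), the latter at a mean of 0.109 CPM in vehicle mice and 0.511 CPM at 30 µg/kg. Among the phosphorylase kinase genes Phka2 was thus called lower, Phkb and Phkg1 higher, and Phkg2 not at all. The Phka2 call was lost with library totals (edgeR adjusted p = 0.200), and differences between these genes were not tested. None of the 5 other targeting subunits of protein phosphatase 1 was called at 30 µg/kg, whereas its catalytic subunit Ppp1cb was lower (-0.37 ± 0.08, edgeR adjusted p = 0.000534), a call lost with library totals (edgeR adjusted p = 0.119).

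Of the 8 hormone signalling genes 3 were lower at 30 µg/kg, where 14.1% of all genes were. They were the glucagon receptor Gcgr (-0.44 ± 0.11, edgeR adjusted p = 0.00127), the insulin receptor Insr (-0.41 ± 0.12, edgeR adjusted p = 0.00775) and the insulin-signalling kinase Akt2 (-0.51 ± 0.08, edgeR adjusted p = 2.80e-06). Akt2 was called at 3 and 10 µg/kg too, and Gcgr at 3 µg/kg. With libraries scaled by their totals alone the calls of Gcgr (log2 fold change -0.23, edgeR adjusted p = 0.112) and Insr (-0.20, edgeR adjusted p = 0.183) were lost and that of Akt2 was kept.

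**Figure D5:**
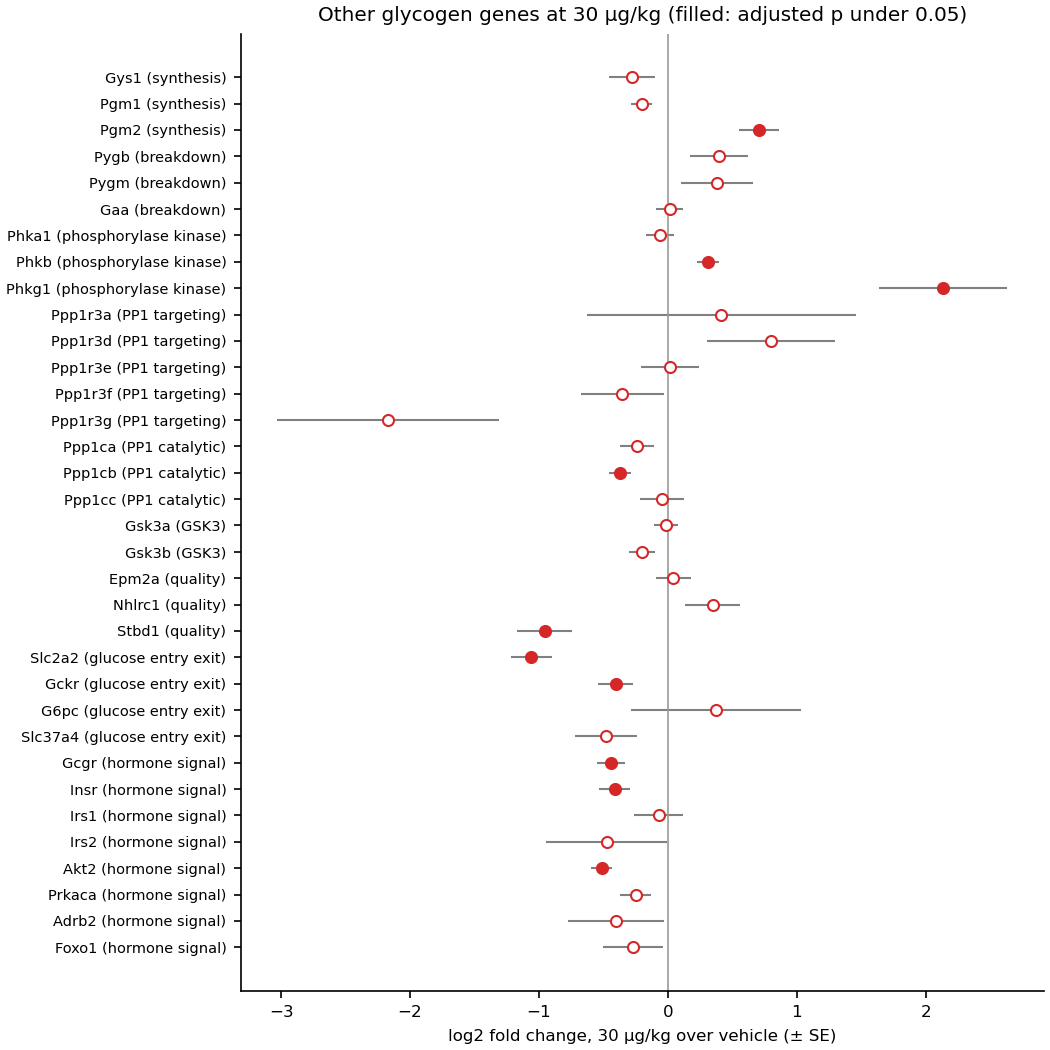
Log2 fold change of 30 µg/kg over vehicle, with its SE, for 34 of the other glycogen genes, with the role of each in brackets. Filled points passed an adjusted p of 0.05, 7 of them below 0 and 3 above, with Slc2a2 (-1.06) and Stbd1 (-0.95) lowest and Phkg1 (2.13) highest among them.

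At 30 µg/kg, 15.5% of all genes were called higher and 14.1% lower. Of the markers of other liver cells some were called higher and 0 lower. Their summed level in vehicle and 30 µg/kg mice ran from 88.7 to 139.6 and from 87.0 to 239.2 CPM for 5 macrophage genes, of which 2 were called higher. It ran from 7.76 to 14.7 and from 15.7 to 32.9 CPM for 6 leukocyte genes, 3 called higher. For 5 stellate cell genes it ran from 42.0 to 55.5 and from 55.05 to 125 CPM, with 1, Col1a1, called higher. For 5 endothelial genes it ran from 101.6 to 133.1 and from 117.2 to 195.6 CPM, 3 called higher. The 4 cholangiocyte genes, at 3.90 to 5.76 and 4.46 to 4.96 CPM, had 0 called. Skeletal muscle genes summed to 0.431 to 1.01 and 2.32 to 4.10 CPM, with Acta1 higher and Myh4 at 0. Adipose genes stayed at or below 0.152 CPM and pancreas genes at or below 0.0451 CPM in these groups. Of the 6 hepatocyte genes, 4 (Apob, Cps1, Apoa1 and Ttr) were called lower, while Alb had a log2 fold change of -0.08 and Hnf4a one of 0.11. In bulk liver, fewer hepatocytes and less of a transcript per hepatocyte cannot be told apart, and the part of these markers in the glycogen values was not tested.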

How the data were processed

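Total liver RNA of 45 mice was sequenced as single reads of 50 bases. The deposited values are raw read counts per Ensembl gene. The authors trimmed the reads, aligned them to GRCm38 with Bowtie and TopHat 1.4.1 and counted them with HTSeq 0.6.1 in intersection-nonempty mode, in which a read shared by overlapping genes may be dropped as ambiguous. Reads on no gene (9.11% to 17.1%) and ambiguous reads (1.34% to 2.07%) stayed out of library sizes. These are shares of those 2 classes and the reads on genes together. Alignments that were not unique, 8231611 to 59345763 per library, are outside these shares and stayed out as well. Random samples were pooled for sequencing, and the pools are not given in the sources used here, so no within-pool comparison was made. Replicates are separate mice, numbered in accession order, and no numbers pair them.

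Genes with more than 4 reads in any sample were tested in edgeR 4.0.16 (R 4.3.3) with TMM normalization, all 45 samples, 1 coefficient per group, the quasi-likelihood test and Benjamini-Hochberg adjustment over all 17464 genes within each comparison. A gene was called at an adjusted p under 0.05. The slope was fitted on dose rank. Log2 CPM used a prior count of 2. Exact permutation tests, correlations and figures were made in Python 3.11.15 with scipy 1.17.1 and matplotlib 3.10.9. Intervals of log2 fold changes are normal 95% intervals. Positions and exon lengths are those of a GENCODE release on GRCm38 later than the authors' annotation, and promoters are from RefSeq. The alternatives were the DESeq2 1.42.0 Wald test, DESeq2 size factors, library totals alone, other filters on low counts, fits of only the 2 groups compared, other slopes and leaving out each mouse. The fit was tested on simulated data.

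The 9 members, the 36 further genes and the marker lists were chosen with earlier results of these data known. All members were named, as were further genes called at 30 µg/kg except 2 that are counted but not reported here, and for each member called over any dose the 2 genes with the highest r. The clock genes, Phkb at 1 µg/kg and the genes named as not called fall outside this rule and were chosen after their values were seen.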

Additional observations from a re-analysis of the deposited data

Results flagged for a closer look

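In 9 of the 81 groups of 5 mice (9 genes in 9 groups), the highest or lowest mouse stood apart, its gap to the nearest mouse being more than 0.71 of the range of the group. Chance gives about 5% for independent groups of normally distributed values. That share need not hold here, since linear CPM were used and several flags come from the same mouse. Gys2 had 117.1 CPM in 1 µg/kg replicate 2, with the next mouse at 289.8, and Ppp1r3c had 101.2 CPM in the same mouse, with the next at 33.4. Replicate 5 at 0.01 µg/kg, the mouse with raised Cyp1a1, was lowest for Ugp2 at 570.6 CPM (next 743.9) and for Phka2 at 23.7 CPM (next 34.8), and highest for Ppp1r3b at 467.8 CPM (next 176.4). Ppp1r3b was also highest in 0.1 µg/kg replicate 1, at 922.6 CPM (next 278.6), and in 1 µg/kg replicate 5, at 352.5 CPM (next 163.4). Ppp1r3c had 306.2 CPM in 0.3 µg/kg replicate 1 (next 79.7), and Ugp2 had 392.2 CPM in 10 µg/kg replicate 1 (next 484.1).

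Leaving out the 0.01 µg/kg replicate 5 and 1 µg/kg replicate 2 libraries together, an alternative chosen after the data were seen, left 0 members called at 0.01 to 1 µg/kg, 2 at 3, 3 at 10 and 4 at 30 µg/kg, as before. The log2 fold changes at 0.01 µg/kg went from -0.22 to -0.14 for Ugp2, from -0.0023 to 0.10 for Phka2 and from -0.35 to -0.96 for Ppp1r3b.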

How the results depend on the processing

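No paired analysis was possible because the labels give no shared replicate numbers. Of the counts of called members, a fit of only the 2 groups compared gave 1 at 1 µg/kg (Ugp2) in place of 0 and 5 at 30 µg/kg (with Gys2) in place of 4. Scaling by library totals alone gave 1 at 3 µg/kg (without Pygl) in place of 2, and 4 at 30 µg/kg with Gyg, higher, in place of Phka2. Leaving out 1 mouse gave between 0 and 2 at 3 µg/kg (0 without replicate 5 of that dose, 1 without vehicle replicate 1 or 4), 3 at 10 µg/kg, between 3 and 4 at 30 µg/kg, and 0 at the lower doses. Scaling by library totals shifted the median log2 fold change of all genes by 0.21 at 30 µg/kg and raised the share of calls that were higher from 52.3% to 80.3%. Under it the dose slope of Phka2 lost its call (adjusted p = 0.0863), and those of Gyg (0.0227) and Phkg2 (0.00752) gained one. On log10 dose without the vehicle mice Phkg2 gained one too (0.0395). These adjusted p-values are from edgeR, and the cause of each change was not tested.

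Signs turned only where a value was not called. Without the 30 µg/kg mice the slope was -0.0018 for Gyg and 0.00032 for Ppp1r3b, and with library totals 0.0022 for Ppp1r3b. With library totals the log2 difference was 0.20 for Ppp1r3c at 30 µg/kg, 0.016 and 0.031 for Phka2 at 0.01 and 0.3 µg/kg, and 0.11 for Phkg2 at 10 µg/kg. Ppp1r3c at 30 µg/kg was 0.00034 with DESeq2 size factors and 0.019 with filterByExpr, and at 1 µg/kg -0.25 without both libraries that stood apart. Phka2 at 0.01 µg/kg was 0.0033 with all genes that had a read, 0.0028 with only 2 groups in the fit and 0.10 without both libraries, and at 0.1 µg/kg -0.00070 with filterByExpr and -0.0031 with only 2 groups.

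Leaving out 1 mouse turned further uncalled log2 differences, which then ran as follows. At 0.01 µg/kg Gyg ran from -0.15 to 0.0401 and Phka2 from -0.072 to 0.10. At 0.03 µg/kg Ugp2 ran from -0.17 to 0.013, Gyg from -0.045 to 0.097, Ppp1r3b from -0.42 to 0.39 and Phka2 from -0.17 to 0.043. At 0.1 µg/kg Gys2 ran from -0.30 to 0.13, Gbe1 from -0.19 to 0.0033, Ugp2 from -0.27 to 0.12, Ppp1r3b from -0.43 to 0.68, Ppp1r3c from -0.069 to 0.70, Phka2 from -0.10 to 0.089 and Phkg2 from -0.11 to 0.036. At 0.3 µg/kg Gyg ran from -0.19 to 0.092 and Phka2 from -0.099 to 0.062. At 1 µg/kg Ppp1r3c ran from -0.26 to 0.62 and Phka2 from -0.022 to 0.092. At 10 µg/kg Gyg ran from -0.066 to 0.062, Ppp1r3c from -0.027 to 0.48 and Phkg2 from -0.10 to 0.076. At 30 µg/kg Ppp1r3b ran from -0.31 to 0.0011, Ppp1r3c from -0.23 to 0.32 and Phkg2 from -0.075 to 0.11.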
